A study of Rattus norvegicus with 8 samples.

Results

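Beta-type globins are the oxygen-carrying subunits that pair with alpha globins in haemoglobin, and in these embryos they serve as a readout of red blood cells caught in the dissected head tissue. The report covers every probe set whose only symbol in the platform annotation is Hbg1, Hbb-b1 or Hbb. These were 4 probe sets of 3 genes, out of 8799 probe sets on the array and 4737 genes named by a probe set of their own. The rule uses names and no measured value, but the 3 genes were chosen with earlier results of these data known. All 4 probe sets were tested. Their values are also combined into an index of blood content for each array.

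The study compared the heads of E12.5 rat embryos that were homozygous for a Pax6 mutation with heads of wild-type embryos. Pax6 is a transcription factor needed for eye and forebrain development, and the labels do not name the mutant allele. A cut at the isthmus parted each head. What is called forebrain here therefore includes midbrain, eye and nose primordia, and what is called hindbrain includes pharyngeal arches. The groups were Pax6 homozygous forebrain, wild-type forebrain, Pax6 homozygous hindbrain and wild-type hindbrain, with 2 arrays each, 8 in all. Nothing in the labels says that arrays of 1 group stand for separate animals or litters. The p-values therefore reflect the spread among these 8 arrays alone, which may be technical.

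Circulating red cells of an early embryo are made mainly in the yolk sac. In mouse, these primitive cells express embryonic beta-type globins first, and the adult-type genes take over as red cells are made in the liver. The genes of the cluster lie roughly in the order of their use, and a control region upstream of the embryonic genes acts on all of them. Globin messenger RNA dominates the transcripts of a young red cell, while cells of the neural tube are not a major source of it. In RNA from a whole tissue part, fewer red cells and less globin RNA per red cell cannot be told apart.

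The name embryonic globins fits only part of the set. Hbg1 is a gamma-type gene, and its mouse counterpart is expressed in primitive red cells. Hbb and Hbb-b1 are adult-type beta globin genes. In the RefSeq gene table of build GRCr8 the cluster on chromosome 1 runs Hbb-bs, Hbb-b1, Hbbl1, Hbb-b2, Hbb, a pseudogene, Hbg1, Hbe2 and Hbe1, so the adult-type genes lie at one end and Hbe1 at the other.

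The probe sets share sequence and are not independent readings. All 4 identifiers end in _f_at, the manufacturer's mark for probes that match a family of similar transcripts. The annotation shows the same overlap elsewhere on the array: 1 globin probe set is listed for both Hbe2 and Hbg1, and another for Hbbl1, Hbb-bs, Hbb-b1 and Hbb. A reading for 1 gene may therefore hold signal from its relatives.

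The proximal promoters of Hbb and Hbb-b1 show how alike these genes are. RefSeq sequences of build GRCr8 cover the 120 bases before each gene's start, both on the minus strand, at chr1:167663722-167663841 for Hbb and chr1:167643521-167643640 for Hbb-b1. Capitals mark matches to CACCC, to CCAAT (written ATTGG where it lies on the opposite strand) and to ATAAA, motifs that textbook globin promoters carry.
Hbb: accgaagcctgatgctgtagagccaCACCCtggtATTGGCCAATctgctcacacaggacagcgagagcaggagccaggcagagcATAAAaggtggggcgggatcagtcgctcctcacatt
Hbb-b1: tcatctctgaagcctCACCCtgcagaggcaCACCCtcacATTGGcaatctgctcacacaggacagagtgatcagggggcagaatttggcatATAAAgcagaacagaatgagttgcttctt
In Hbb, CACCC ended 91 bases before the start, an ATTGG and a CCAAT stood side by side between 86 and 77 bases before it, and ATAAA ended 32 bases before it. Hbb-b1 held CACCC at both 105 and 90 bases before the start (position of the first base), ATTGG at 81 and ATAAA at 29. Of 33469 promoter windows of this length, 29.5% held CACCC on either strand, 19.9% CCAAT and 21.5% ATAAA, and 0.956% held all of them. AGATAA, a form of the GATA motif held by 4.57% of the windows, was in neither window. The alignment of the 2 windows paired 110 bases, of which 88 were identical (80%), with 20 gap positions. These matches are descriptions of the sequence and were not tested for binding.

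All 4 probe sets were bright. The noise level of an array was taken as the size of the 5th percentile of its intensities, which is negative, and ranged over 243 to 619.8 units. Every array exceeded its noise level for each member. The lowest reading was 62.7 times the noise for the Hbg1 probe set rc_AA875512_f_at and 24.0 times for Hbb. It was 13.5 times for Hbb-b1 and 7.52 times for the other Hbg1 probe set, rc_AA875199_f_at.

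Across the series, replicate arrays correlated with r between 0.899 and 0.947 over all probe sets. The 3'/5' ratio of actin, a measure of RNA length, was 1.39 and 1.32 in Pax6 homozygous forebrain, against 1.29 and 1.69 in wild-type forebrain. In hindbrain it was 1.23 and 1.29 in Pax6 homozygous embryos, against 1.41 and 1.44 in wild-type embryos. Actin groups overlapped in forebrain, and in hindbrain the Pax6 homozygous arrays were lower. The same ratio for GAPDH was 1.18 and 1.14 in Pax6 homozygous forebrain, against 1.23 and 1.19 in wild-type forebrain, without overlap. It was 1.162 and 1.141 in Pax6 homozygous hindbrain, against 1.269 and 1.149 in wild-type hindbrain, with overlap. The part of these ratios in the globin differences was not tested. The geometric mean of 9 spike-in probe sets was 9866 and 8533 units in Pax6 homozygous forebrain against 9647 and 9735 in wild-type forebrain. It was 6526 and 6615 units in Pax6 homozygous hindbrain against 14616 and 8482 in wild-type hindbrain, a difference in the added controls that runs with genotype in that region. The probe set for Pax6 read 1243.3 and 926.6 units in Pax6 homozygous forebrain against 1197.3 and 635.8 in wild-type forebrain. In hindbrain it read 1194.2 and 1111.3 units in the Pax6 homozygous part against 826.8 and 531.1 in the wild-type part. With the allele not named, this probe set does not check the labels.

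The first question was whether the globin signal of the forebrain part differed between genotypes. All 4 probe sets read lower on both Pax6 homozygous forebrain arrays than on both wild-type forebrain arrays. None passed the adjusted threshold of 0.05. The median log2 change of the 4 was -0.57, against 0.01 over all 5881 probe sets tested.

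The bright Hbg1 probe set, rc_AA875512_f_at, read 36080.4 and 32408.3 units in Pax6 homozygous forebrain, against 49103.4 and 44365.7 units in wild-type forebrain. The log2 change of this probe set was -0.45 ± 0.12 (standard error), a ratio of 0.733 with a 95% interval of 0.607 to 0.884 (limma, adjusted p = 1). The gap between the groups was wider than the gap within either of them.

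Hbb-b1 read 7071.4 and 6164.7 units in Pax6 homozygous forebrain, against 9554.2 and 13434.3 units in wild-type forebrain. The log2 change of Hbb-b1 was -0.78 ± 0.22, a ratio of 0.583 with an interval of 0.409 to 0.83 (limma, adjusted p = 1). Of the 4 it had the lowest ratio, and the wild-type arrays differed more between themselves than the Pax6 homozygous arrays did.

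Hbb read 13646.0 and 14123.9 units in Pax6 homozygous forebrain, against 17427.2 and 21566.2 units in wild-type forebrain. On the log2 scale Hbb differed by -0.48 ± 0.16, a ratio of 0.716 with an interval of 0.555 to 0.924 (limma, adjusted p = 1). Both Pax6 homozygous arrays lay close together, below the wild-type pair.

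The dimmer Hbg1 probe set, rc_AA875199_f_at, read 4819.1 and 10410.1 units in Pax6 homozygous forebrain, against 11258.3 and 11076.7 units in wild-type forebrain. The model gave it a log2 change of -0.66 ± 0.39, a ratio of 0.634 with an interval of 0.344 to 1.17 (limma, adjusted p = 1). The 1st Pax6 homozygous array decided this size: without it the log2 change was -0.10. The 2nd lay close to the wild-type pair.

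Groups that did not overlap, with Pax6 homozygous forebrain lower, were found for 10.5% of all probe sets tested, against 4 of 4 here. An unadjusted p under 0.05 with the lower value in Pax6 homozygous forebrain was found for 1.31% of all probe sets, against 3 of 4 here. Because the probe sets share sequence, these counts are not separate observations. The genes were also chosen with earlier results of these data known, so such counts, here and below, are descriptions. An adjusted p under 0.05 was reached by 0.017% of the probe sets, and by 0 of the 4.

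**Figure D1:**
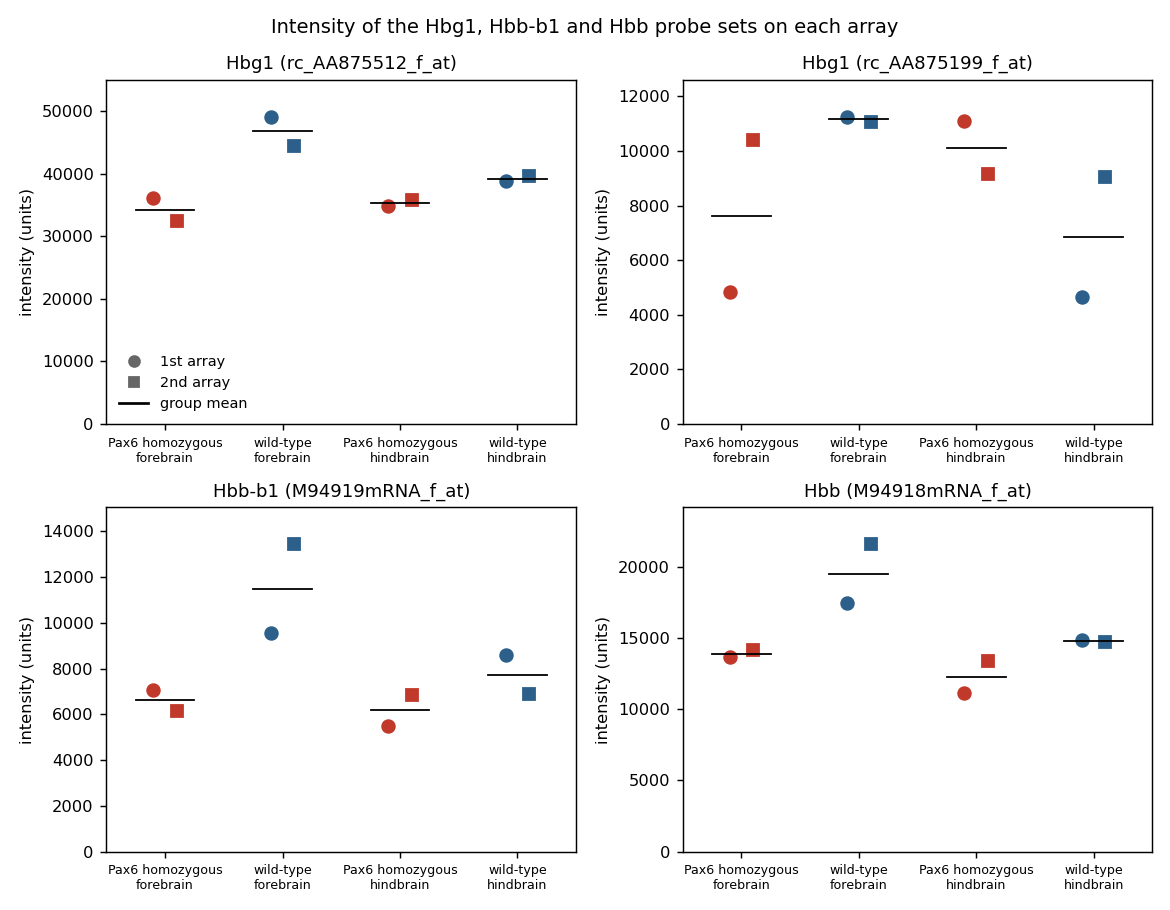
Deposited intensity (units) of each Hbg1, Hbb-b1 and Hbb probe set on every array, by group. Circles are 1st arrays, squares 2nd arrays and lines group means of 2 arrays; Pax6 homozygous is red and wild-type blue. Wild-type forebrain holds the highest reading of each probe set, and rc_AA875199_f_at has 1 low array in Pax6 homozygous forebrain and 1 in wild-type hindbrain.

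In hindbrain 3 of the probe sets read lower in Pax6 homozygous embryos, each by less than in forebrain, and the other Hbg1 probe set had the opposite sign. None of the 4 had an unadjusted p under 0.05, which 1.89% of all probe sets had with the lower value in Pax6 homozygous hindbrain and 2.6% with the higher. An adjusted p under 0.05 was reached by 0.017% of all and by 0 of the 4. The median log2 change was -0.21, against 0.04 over all probe sets tested.

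Hbg1 rc_AA875512_f_at read 34803.8 and 35795.9 units in Pax6 homozygous hindbrain, against 38841.9 and 39554.4 units in wild-type hindbrain. This was a log2 change of -0.15 ± 0.12, a ratio of 0.90 with an interval of 0.747 to 1.09 (limma, adjusted p = 0.991). The groups did not overlap, though the interval spans no change.

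Hbb-b1 read 5502.6 and 6861.6 units in Pax6 homozygous hindbrain, against 8594.3 and 6878.9 units in wild-type hindbrain. Hbb-b1 had a log2 change of -0.32 ± 0.22, a ratio of 0.799 with an interval of 0.561 to 1.14 (limma, adjusted p = 0.991). The 2nd arrays of the groups were almost level, and the change was -0.16 without the 1st array of either group.

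Hbb read 11149.9 and 13414.1 units in Pax6 homozygous hindbrain, against 14850.9 and 14745.0 units in wild-type hindbrain. The log2 change of Hbb was -0.27 ± 0.16, a ratio of 0.826 with an interval of 0.641 to 1.07 (limma, adjusted p = 0.989). The Pax6 homozygous arrays were again both below the wild-type pair, and the change was -0.14 without the 1st Pax6 homozygous array.

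Hbg1 rc_AA875199_f_at read 11107.3 and 9142.5 units in Pax6 homozygous hindbrain, against 4659.3 and 9065.1 units in wild-type hindbrain. Here the log2 change was 0.63 ± 0.39, a ratio of 1.55 with an interval of 0.841 to 2.86 (limma, adjusted p = 0.989). The low reading of the 1st wild-type array set much of this difference, and without that array it was 0.15.

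Groups that did not overlap, with Pax6 homozygous hindbrain lower, were found for 14.5% of all probe sets tested and for 3 of these 4. The opposite order was found for 20.1% of all and for 1 of the 4. The spike-in controls also read lower on both Pax6 homozygous hindbrain arrays, and their part in these small differences was not tested. In forebrain the control readings of the genotypes overlapped.

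The linear model gave 1 genotype change for each probe set averaged over both regions. The log2 change was -0.30 ± 0.08 for Hbg1 rc_AA875512_f_at (limma, adjusted p = 0.801). It was -0.55 ± 0.16 for Hbb-b1 (limma, adjusted p = 0.801) and -0.38 ± 0.11 for Hbb (limma, adjusted p = 0.825). For Hbg1 rc_AA875199_f_at, whose regions had opposite signs, it was -0.01 ± 0.27 (limma, adjusted p = 1). Pax6 homozygous arrays lay below wild-type arrays in both regions for 2.91% of all probe sets and for 3 of these 4. An unadjusted p under 0.05 with Pax6 homozygous lower was found for 2.09% of all and for 3 of the 4. The whole table had 2 probe sets past the adjusted threshold in this contrast (0.034%), neither of them a globin.

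An interaction term, forebrain minus hindbrain, set the genotype differences of the regions against each other. Its median over the 4 probe sets, which share sequence, was -0.38, against -0.02 over all 5881 probe sets tested. All 4 values were negative, at -0.30 ± 0.17 for Hbg1 rc_AA875512_f_at, -0.46 ± 0.32 for Hbb-b1, -0.21 ± 0.23 for Hbb and -1.29 ± 0.55 for Hbg1 rc_AA875199_f_at. The last alone had an unadjusted p under 0.05 (limma, adjusted p = 1), which 1.19% of all probe sets had in this direction. Its order, lower in Pax6 homozygous forebrain and higher in Pax6 homozygous hindbrain without overlap, was shared by 1.6% of all probe sets. By adjusted p, 0 of the 5881 probe sets passed (0%), and 112 had an unadjusted p under 0.05 in either direction. A different size of genotype effect in forebrain and hindbrain was therefore not shown for any of these globins.

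**Figure D2:**
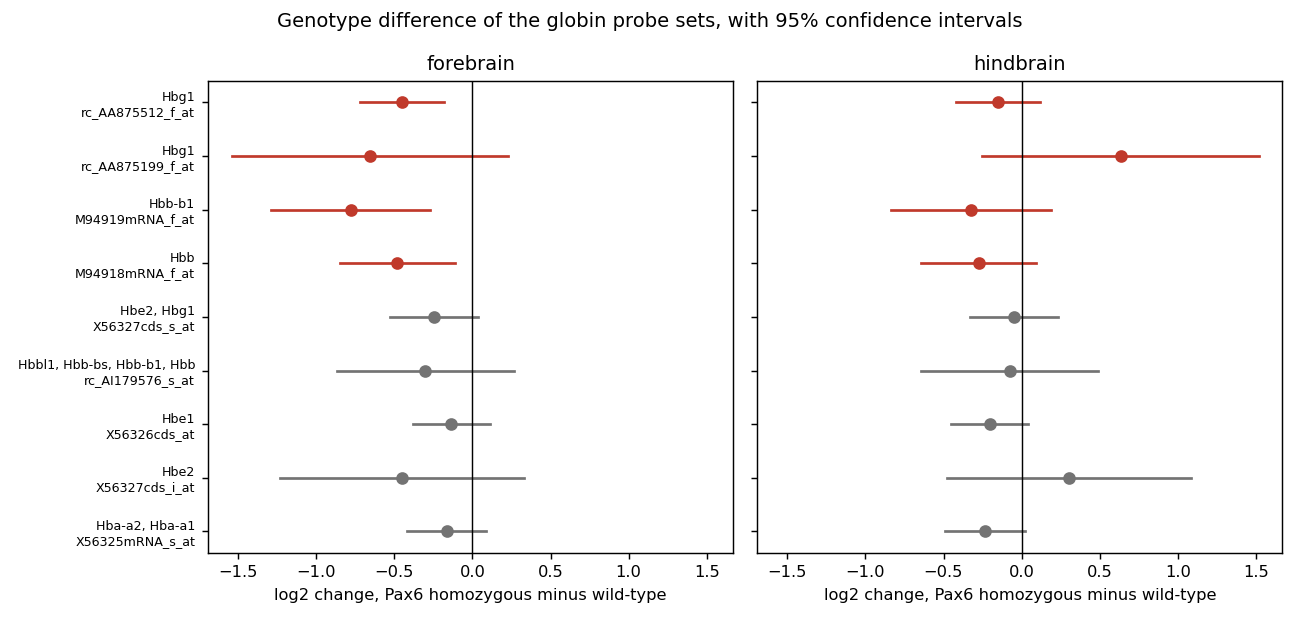
Genotype log2 change (Pax6 homozygous minus wild-type, horizontal axis) of the globin probe sets in forebrain (left) and hindbrain (right), with 95% confidence intervals from the linear model. Red marks the 4 probe sets of Hbg1, Hbb-b1 and Hbb and grey 5 other globin probe sets above noise on all 8 arrays; Hba-a3 is not drawn. All 9 points lie below 0 in forebrain, and in hindbrain rc_AA875199_f_at and Hbe2 lie above it.

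The 2 Hbg1 probe sets disagreed on some arrays. The reading of rc_AA875199_f_at divided by that of rc_AA875512_f_at gives their balance on an array, without comparing the levels themselves. This quotient was 0.134 and 0.321 in Pax6 homozygous forebrain, against 0.229 and 0.25 in wild-type forebrain. In hindbrain it was 0.319 and 0.255 in Pax6 homozygous embryos, against 0.12 and 0.229 in wild-type embryos. It was low on the 1st Pax6 homozygous forebrain array and the 1st wild-type hindbrain array, where rc_AA875199_f_at read 4819.1 and 4659.3 units. On the other 6 arrays that probe set read at least 9065.1 units. Its highest reading was 2.42 times its lowest, against 1.52 times for rc_AA875512_f_at. The sequences of the probes were not used here, so why the pair parted on these arrays was not tested.

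Hbb and Hbb-b1, the adult-type genes, kept a steadier balance. Hbb-b1 divided by Hbb was 0.518 and 0.436 in Pax6 homozygous forebrain, against 0.548 and 0.623 in wild-type forebrain. In hindbrain it was 0.494 and 0.512 in Pax6 homozygous embryos, against 0.579 and 0.467 in wild-type embryos. In hindbrain the groups overlapped, and in forebrain the wild-type values were higher. Hbg1 rc_AA875512_f_at divided by Hbb, a balance of the gamma-type to the adult-type signal, was 2.64 and 2.29 in Pax6 homozygous forebrain and 2.82 and 2.06 in wild-type forebrain. In hindbrain it was 3.12 and 2.67 in the Pax6 homozygous part and 2.62 and 2.68 in the wild-type part. The groups overlapped in each region, so no difference between genotypes in this balance was detectable with these arrays.

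The index of blood content was the mean log2 intensity of the 4 probe sets on an array. It was 13.47 and 13.68 in Pax6 homozygous forebrain, against 14.09 and 14.25 in wild-type forebrain. In hindbrain it was 13.60 and 13.69 in Pax6 homozygous embryos, against 13.59 and 13.75 in wild-type embryos. Wild-type forebrain was the highest group, and both its arrays exceeded the other 6. The other groups overlapped one another, and the pooled SD within groups was 0.11.

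As a percent of the wild-type forebrain mean, taken on the log2 scale, the index was 61.9% and 71.2% in Pax6 homozygous forebrain, against 94.7% and 105.6% in wild-type forebrain itself. It was 67.5% and 71.6% in Pax6 homozygous hindbrain, against 67.0% and 75.1% in wild-type hindbrain. The difference in the index between genotypes was -0.59 in forebrain and -0.03 in hindbrain. Brighter globin probe sets outside the index, for Hbe1 and for Hba-a1 with Hba-a2, did not share its size. Their forebrain genotype changes were -0.13 ± 0.11 and -0.17 ± 0.11. In wild-type embryos their forebrain minus hindbrain difference was 0.05 ± 0.11 each, against 0.50 for the index. Which of these readings follows blood content more closely was not tested. No p-value is given, because the index averages probe sets that share sequence.

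The hindbrain value rested on 1 probe set. Without rc_AA875199_f_at the index was 13.89 and 13.79 in Pax6 homozygous forebrain, against 14.30 and 14.52 in wild-type forebrain. It was 13.65 and 13.86 in Pax6 homozygous hindbrain, against 14.06 and 13.96 in wild-type hindbrain. The genotype difference was then -0.57 in forebrain and -0.25 in hindbrain, and in hindbrain the groups did not overlap.

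The summed intensity of the 4 probe sets, as a percent of the summed positive intensity of the array, was 0.186% and 0.191% in Pax6 homozygous forebrain, against 0.263% and 0.264% in wild-type forebrain. It was 0.194% and 0.204% in Pax6 homozygous hindbrain, against 0.195% and 0.214% in wild-type hindbrain. On this measure, too, the wild-type forebrain arrays were the highest pair.

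**Figure D3:**
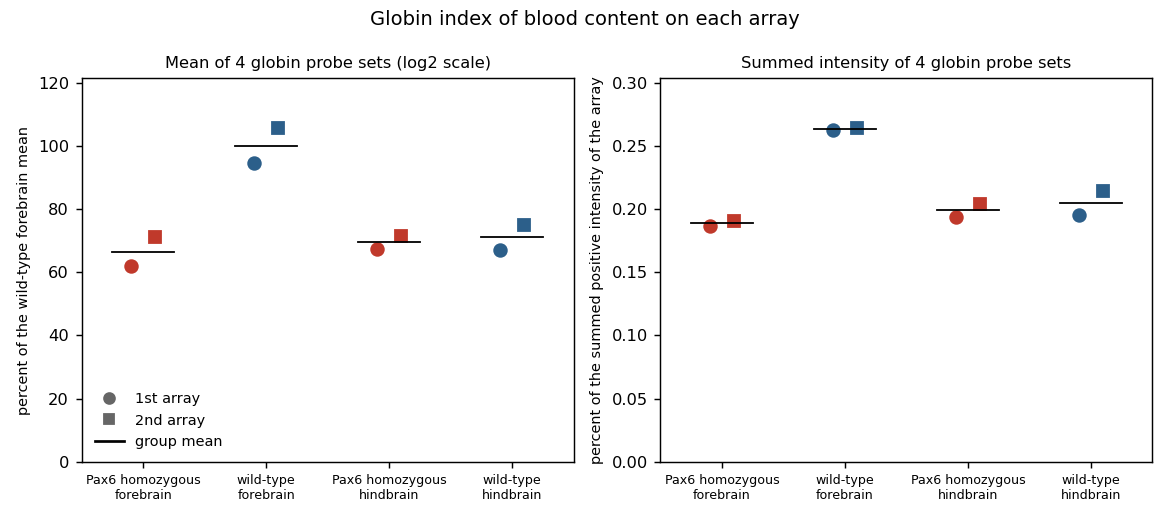
Globin index of blood content on each array, by group: left, the mean of the 4 probe sets on the log2 scale, drawn as a percent of the wild-type forebrain mean; right, their summed intensity as a percent of the array's summed positive intensity. Circles are 1st arrays, squares 2nd arrays and lines group means. The 2 wild-type forebrain arrays lie at 94.7% and 105.6% on the left, above the other 6 arrays at 61.9% to 75.1%.

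Forebrain and hindbrain were also compared within each genotype. This comparison uses the same wild-type forebrain arrays as the genotype comparison above, so its values are not separate support. In wild-type embryos all 4 probe sets were higher in forebrain than in hindbrain without overlap, an order that 12.8% of all probe sets shared. The log2 differences were 0.25 ± 0.12 for Hbg1 rc_AA875512_f_at, 0.78 ± 0.39 for Hbg1 rc_AA875199_f_at, 0.56 ± 0.22 for Hbb-b1 and 0.39 ± 0.16 for Hbb. By unadjusted p under 0.05 and higher in forebrain, 2 of the 4 passed, against 1.9% of all probe sets. By adjusted p none of the 4 did (limma, 0.763 to 0.963), against 0.782% of all.

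In Pax6 homozygous embryos the signs were mixed. The log2 differences, forebrain minus hindbrain, were -0.05 ± 0.12 for Hbg1 rc_AA875512_f_at, -0.51 ± 0.39 for Hbg1 rc_AA875199_f_at, 0.10 ± 0.22 for Hbb-b1 and 0.18 ± 0.16 for Hbb (limma, adjusted p = 0.998 for each, a threshold that 0.459% of all probe sets passed). Without overlap and higher in forebrain were 14.9% of all probe sets and 1 of these 4. Averaged over genotypes, Hbb differed most clearly, at 0.29 ± 0.11 (limma, adjusted p = 0.538). It was the 1 member with an unadjusted p under 0.05 and the higher value in forebrain, as for 2.72% of all probe sets, and the 1 member without overlap in both genotypes, as for 4.13%. By adjusted p, 0 of the 4 passed, against 1.51% of all.

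Other globin probe sets measure the alpha globin partners and further beta-type genes, and some are annotated to Hbg1, Hbb-b1 or Hbb as well. Hbe1, an embryonic epsilon-type beta globin, read 88164.1 and 89599.3 units in Pax6 homozygous forebrain, against 92576.0 and 102716.6 units in wild-type forebrain. In hindbrain it read 81917.7 and 81639.9 units in the Pax6 homozygous part, against 100495.8 and 88492.8 units in the wild-type part. Its genotype change over both regions was -0.17 ± 0.08 (limma, adjusted p = 0.928). Both Pax6 homozygous arrays were below both wild-type arrays in each region, by -0.13 ± 0.11 on the log2 scale in forebrain and -0.21 ± 0.11 in hindbrain.

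The alpha globin partners, read together by the Hba-a1 and Hba-a2 probe set, were at 77727.4 and 83539.3 units in Pax6 homozygous forebrain, against 83953.8 and 97299.7 units in wild-type forebrain. They were at 74979.4 and 73530.3 units in Pax6 homozygous hindbrain, against 89846.3 and 84722.1 units in wild-type hindbrain. The change over both regions was -0.20 ± 0.08 (limma, adjusted p = 0.928). By region it was -0.17 ± 0.11 in forebrain and -0.23 ± 0.11 in hindbrain. The probe set shared by Hbe2 and Hbg1 had genotype differences of -0.25 ± 0.12 in forebrain and -0.05 ± 0.12 in hindbrain, Hbe2 alone of -0.45 ± 0.34 and 0.31 ± 0.34, and the probe set shared by 4 adult-type genes of -0.30 ± 0.25 and -0.08 ± 0.25, none past the threshold.

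Of these 5 other globin probe sets above noise on all arrays, 5 had a negative genotype change in forebrain, where 48.7% of all probe sets did, and 4 in hindbrain, where 45.5% did. Groups did not overlap, Pax6 homozygous lower, for 4 in forebrain (10.5% of all probe sets) and 2 in hindbrain (14.5%). As a list of 1 probe set a gene (Hba-a3, Hbe1 and Hbe2), 2 of 3 were negative in each region. Hba-a3 exceeded its noise level on 1 of 8 arrays and is not described further.

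Genes for the rest of the red cell were followed in lists with 1 probe set for each gene. In haem synthesis, 4 of 5 genes tested had a negative genotype change in forebrain and 4 of 5 in hindbrain. Over all probe sets, 48.7% were negative in forebrain and 45.5% in hindbrain. None of the genes in any list passed the adjusted threshold for genotype. Alas2, the red cell form of the enzyme that starts haem synthesis, read 4268.0 and 3972.1 units in Pax6 homozygous forebrain, against 4992.7 and 6189.9 units in wild-type forebrain. It read 4133.8 and 3679.5 units in Pax6 homozygous hindbrain, against 4304.3 and 4916.6 units in wild-type hindbrain. The groups did not overlap in either region, and the change over both was -0.34 ± 0.14 (limma, adjusted p = 0.928). Alas1, its housekeeping counterpart, had differences of -0.04 in forebrain and -0.22 in hindbrain.

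Among red cell membrane genes, 4 of 7 were negative in forebrain and 6 of 7 in hindbrain. Slc4a1, the band 3 anion exchanger, read 2051.0 and 2305.7 units in Pax6 homozygous forebrain, against 3584.3 and 2630.1 units in wild-type forebrain. It read 1900.5 and 1800.2 units in Pax6 homozygous hindbrain, against 2764.0 and 2204.2 units in wild-type hindbrain (brightest probe set, rc_AA866414_at). Its change over both regions was -0.46 ± 0.18 (limma, adjusted p = 0.928). Slc4a1 was again lower on every Pax6 homozygous array than on the wild-type arrays of its region, and its other probe sets had differences of -0.30 ± 0.28 and -0.63 ± 0.26 over both regions. Rhd, a Rhesus blood group protein of the membrane, had a difference of -0.41 ± 0.18 over both regions (limma, adjusted p = 0.928) with its brighter probe set, and of -0.12 ± 0.19 with the other. Add2, a cytoskeletal adducin that nerve cells also express, was above noise on 4 of 8 arrays. Epb41 and Slc2a1 were among the genes positive in forebrain, at 0.39 ± 0.35 and 0.04 ± 0.29. In hindbrain they had differences of -0.22 ± 0.35 and 0.42 ± 0.29. Between regions, over both genotypes, Epb41 was lower in forebrain, at -0.91 ± 0.24 (limma, adjusted p = 0.174), opposite in sign to the globins.

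Of the red cell enzymes 4 of 8 were negative in forebrain and 8 of 8 in hindbrain. None of the 8 had an interaction past the adjusted threshold in limma, so a difference between regions was not shown. Prdx2, an abundant peroxide-removing enzyme of red cells that other cells also make, had differences of -0.11 ± 0.14 in forebrain and -0.38 ± 0.14 in hindbrain (limma, adjusted p = 0.989). The median of this list was 0.03 in forebrain, where that of the globins was -0.57, and -0.22 in hindbrain.

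Iron handling genes were mixed in sign, with 3 of 6 negative in forebrain and 1 of 6 in hindbrain. Tfrc, the transferrin receptor that brings iron into cells, read 4222.9 and 3436.1 units in Pax6 homozygous forebrain, against 3232.8 and 2350.3 units in wild-type forebrain. Ireb2, a regulator of messenger RNAs for iron proteins, read 3903.4 and 3470.0 units in Pax6 homozygous forebrain, against 2970.5 and 1875.8 units in wild-type forebrain. Its change over both regions was 0.48 ± 0.18 (limma, adjusted p = 0.928), opposite in sign to the globins. Of the erythroid regulators 1 of 3 was negative in forebrain and 0 of 3 in hindbrain, and Kit and Epor were above noise on 4 and 2 arrays.

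Other cells and fluids of the blood were measured mostly near noise. Among leukocyte genes 6 of 7 were negative in forebrain and 3 of 7 in hindbrain. Their summed reading was 2524 to 2656 units in Pax6 homozygous forebrain against 3406 to 3942 in wild-type forebrain, and 3982 to 4042 units in Pax6 homozygous hindbrain against 3268 to 3813 in wild-type hindbrain. Without Ptprc, the common leukocyte antigen, the hindbrain sums overlapped, at 3137 to 3533 units in the Pax6 homozygous part and 3011 to 3433 in the wild-type part. Cd14 was the one member of that list above noise on all arrays. Ptprc was above noise on 4 arrays at most, for any of its 3 probe sets.

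Platelet and megakaryocyte genes were negative for 3 of 5 in each region. Pf4, a chemokine of platelet granules, read 3409.2 and 4755.6 units in Pax6 homozygous forebrain, against 4263.3 and 6819.5 units in wild-type forebrain, with overlap. Endothelial genes were negative for 1 of 5 in forebrain and 4 of 5 in hindbrain. Pecam1, an adhesion molecule of vessel walls, had differences of 0.02 ± 0.45 in forebrain and -0.05 ± 0.45 in hindbrain, so a difference of the size read for the globins could not be told from 0 in this gene.

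Plasma and yolk sac genes were negative for 5 of 10 in forebrain and 6 of 10 in hindbrain. Their summed reading was 7879 to 9213 units in Pax6 homozygous forebrain against 11869 to 12266 in wild-type forebrain. In hindbrain it was 15305 to 16394 units in the Pax6 homozygous part against 16845 to 20063 in the wild-type part. The forebrain gap rested on Apoe, a lipid carrier that brain cells also make. Its brighter probe set, used in the sum, read 3647.1 and 6557.2 units in Pax6 homozygous forebrain, against 8510.4 and 8913.4 units in wild-type forebrain. The other Apoe probe set overlapped there, at 2361.7 and 2797.4 units against 2332.3 and 3243.2. Its forebrain log2 change was -0.10, against -0.83 for the brighter one. Without Apoe the sums overlapped, at 2656 to 4232 units in Pax6 homozygous forebrain and 3352 to 3358 in wild-type forebrain. Without Ttr the hindbrain sums overlapped, at 8805 to 10696.5 units in the Pax6 homozygous part and 9143 to 11416 in the wild-type part. Ahsg went the other way, at 893.3 and 710.3 units in Pax6 homozygous forebrain, against 410.0 and 410.6 in wild-type forebrain. In hindbrain it read 1064.1 and 1099.8 units in the Pax6 homozygous part, against 451.5 and 609.4 in the wild-type part. Its change over both regions was 1.00 ± 0.27 (limma, adjusted p = 0.801), opposite in sign to the globins. Ahsg was above noise on 6 of 8 arrays. Afp, a protein of yolk sac and liver, was above noise on 0 of 8 arrays. One gene of all the lists passed the threshold between regions, Ttr, a thyroid hormone carrier also made by choroid plexus, which was lower in forebrain than in hindbrain (limma, adjusted p = 4.4e-05). It was at or below noise on all 4 forebrain arrays and read 5697.5 to 8647.3 units in hindbrain.

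**Figure D4:**
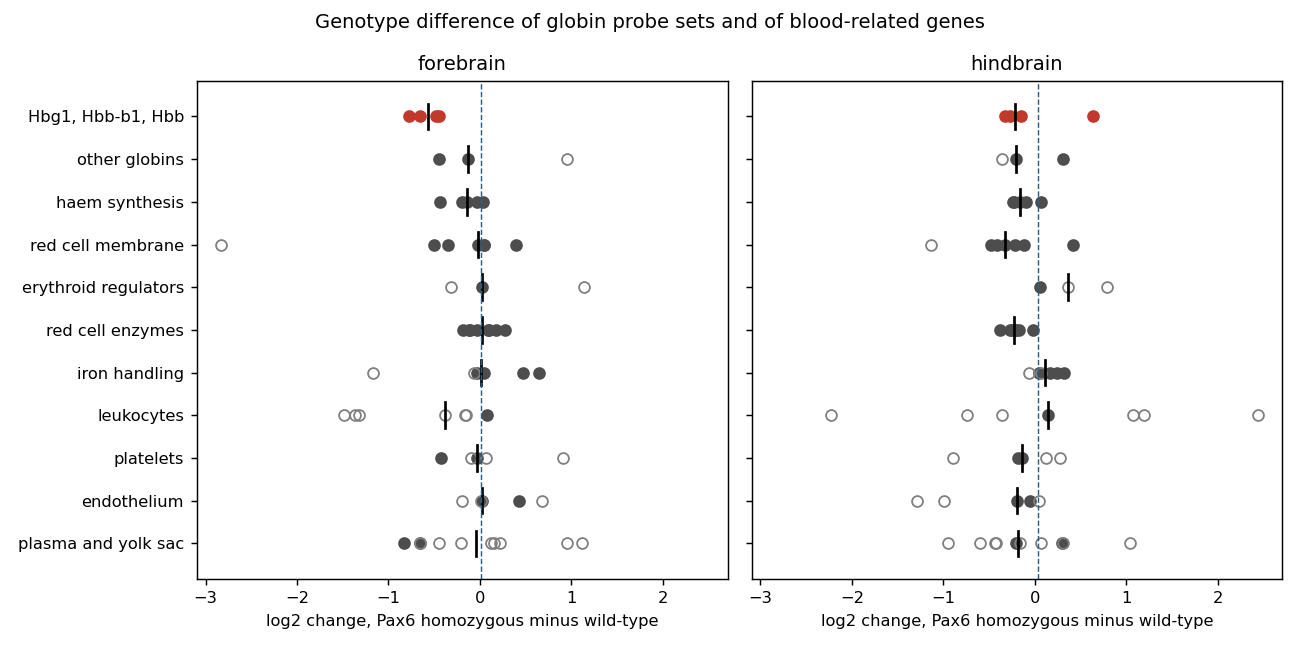
Genotype log2 change (Pax6 homozygous minus wild-type, horizontal axis) of the 4 globin probe sets (red) and of 59 genes in 10 lists (grey), in forebrain (left) and hindbrain (right). Filled grey points were above noise on all 8 arrays and open points were not; short bars are list medians and the dashed line is the median of all 5881 probe sets tested. In forebrain the 4 globin probe sets have a median of -0.57, and list points that lie beyond -1 are all open.

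The genes whose pattern was most like the index were ranked by Pearson correlation over the 8 arrays, among 2518 probe sets above noise on every array and with a range of at least 0.5 on the log2 scale. The arrays share their groups and scaling, so these correlations are descriptions. The closest were Erp29 (r = 0.87), an endoplasmic reticulum chaperone, Tle5 (r = 0.87), a co-repressor, and Dusp6 (r = 0.85), a phosphatase of the MAP kinase pathway. They were followed by Penk (0.85), Apba3 (0.84), Ndufc1 (0.84), Cryaa (0.83), Aldh1a1 (0.83), Ppp1r13l (0.82) and Alas2 (0.82).

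Alas2, at rank 10, was the one gene among them from the lists. Erp29 read 3973.0 and 4790.6 units in Pax6 homozygous forebrain, against 8001.7 and 10082.8 units in wild-type forebrain. Cryaa, a lens crystallin, read 1302.7 and 683.3 units in Pax6 homozygous forebrain, against 4919.2 and 5254.2 units in wild-type forebrain. In hindbrain Cryaa read 1188.9 and 894.1 units in the Pax6 homozygous part, against 1018.3 and 737.4 units in the wild-type part. A gene of the eye thus shared with the index its high wild-type forebrain arrays, as any gene bright in that group alone would. Of the other list genes, Pf4 ranked 14 (r = 0.80), Apoe 16 (r = 0.80) and Rhd 57 (r = 0.66), while Ireb2 ranked 2508 (r = -0.86). Probe sets of the same gene could differ widely. Those of Slc4a1 ranked 20 (r = 0.77), 86 (r = 0.62) and 879 (r = 0.06), and the other Apoe probe set ranked 339 (r = 0.37). Hbe1, with a range under 0.5, was not ranked.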

How the data were processed

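Per the labels' protocols, poly(A) RNA was converted to biotin-labelled cRNA and hybridised to Affymetrix rat U34A arrays, 1 array for each of 8 samples. The authors deposited 1 linear intensity for each probe set and array, with negative values. How the scanner image became these values is not given in the sources used here. The mean without the lowest and highest 2% of values was 2504 to 2505 on each array, so the deposited scaling was kept. No detection calls were used.

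Before log2, intensities were floored at 45.9, the 25th percentile of all arrays pooled. Testing covered the 5881 probe sets that exceeded 255, the pooled 40th percentile, on 2 or more arrays. The 59 array controls were left out. limma 3.58.1 in R 4.3.3 fitted the 4 group means over all arrays with lmFit, with 4 residual degrees of freedom, and eBayes used an intensity trend. Two-sided p-values got a Benjamini-Hochberg adjustment over the whole set of tests and a threshold of 0.05. The number of arrays limits the precision, and the fit was tested on simulated data. The alternatives are given in the closing section.

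Gene symbols came from the platform annotation, in which 7018 probe sets had 1 symbol and 308 several. The symbols of all 3 genes matched RefSeq by Entrez identifier. Promoter sequences were aligned with Biopython 1.88. Hbg1 had no promoter entry.

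The members and the 10 gene lists (other globins, haem synthesis, red cell membrane, erythroid regulators, red cell enzymes, iron handling, leukocytes, platelets, endothelium, plasma and yolk sac) were chosen with earlier results of these data known. A gene's brightest tested probe set stood for it. Named from each list were at most the 4 genes with the smallest p for genotype over both regions and the 2 for region. Also named were the 10 genes most correlated with the index. Pax6, as the mutated gene, and Afp, Cd14 and Ptprc, as markers, were named beside this rule where it did not hold them, after their values were seen. The sums of the plasma and leukocyte lists without Apoe, Ttr or Ptprc were chosen after seeing the data.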

Additional observations from a re-analysis of the deposited data

Results flagged for a closer look

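The Hbg1 probe set rc_AA875199_f_at had opposite genotype differences in the 2 regions. Both Pax6 homozygous forebrain arrays read below both wild-type forebrain arrays, and both Pax6 homozygous hindbrain arrays read above both wild-type hindbrain arrays. The interaction, forebrain minus hindbrain, was -1.29 ± 0.55 on the log2 scale (limma, adjusted p = 1). This order was shared by 94 of 5881 probe sets (1.6%). The 1st Pax6 homozygous forebrain array (4819.1 units) and the 1st wild-type hindbrain array (4659.3 units) were the low readings. The other Hbg1 probe set read 36080.4 and 38841.9 units on those arrays and had a negative change in both regions.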

How the results depend on the processing

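None of the 4 probe sets of Hbg1, Hbb-b1 and Hbb passed the adjusted threshold under the alternatives run: other filters, floors, scalings, fits without the trend or with only the groups compared, the replicate number as a block, or leaving out each array in turn. The smallest adjusted p of a member over the genotype contrasts and the contrast of regions over both genotypes was 0.244. Every group holds 1 array of each replicate number, so the replicate block could change the p-values but not the log2 changes. With or without it the medians of the 4 probe sets were -0.57 in forebrain, -0.21 in hindbrain and -0.34 over both for genotype. They were -0.38 for the interaction. For region they were 0.21 over both genotypes, 0.47 in wild-type and 0.03 in Pax6 homozygous embryos. Same-numbered arrays deviated together (r from 0.275 to 0.465 over pairs of groups), and the noise level was higher on the 1st array of every group (389.2 to 619.8 units) than on any 2nd array (243.3 to 351.7 units). The labels do not say what the numbers mark, so the block stays an alternative. Leaving out 1 array, the median ranged from -0.64 to -0.49 in forebrain, -0.29 to -0.14 in hindbrain, -0.38 to -0.30 over both, -0.53 to -0.29 for the interaction, 0.18 to 0.29 for region, 0.32 to 0.66 for region in wild-type and -0.06 to 0.12 for region in Pax6 homozygous embryos. For rc_AA875199_f_at the genotype change over both regions (-0.01) ranged from -0.29 to 0.27 and turned to 0.27 without Pax6 homozygous forebrain array 1, 0.23 without wild-type hindbrain array 2 and 0.06 without Pax6 homozygous hindbrain array 2. Its region difference (0.14) ranged from -0.14 to 0.41 and turned to -0.14 without Pax6 homozygous forebrain array 2 and -0.10 without wild-type hindbrain array 1. Centring arrays on the median moved the region median in Pax6 homozygous embryos to 0.15 and the index difference there to 0.054, against -0.07 as reported. Without rc_AA875199_f_at that index difference was 0.080, and the hindbrain genotype difference -0.25. As a summed percent, the index difference between regions in wild-type was 0.37 against 0.50 in the main setting. For these shifts the cause was not tested, beyond the fewer arrays or probe sets each setting used. The other 454 values kept their direction and side of the threshold or moved by less than the spread between replicates. Many of them could not move. Log2 changes of the 4 probe sets were fixed under the other floor and filter, the block, and fits without the trend or with only the groups compared. They were also fixed where the array left out lay outside the groups compared. The other globin probe sets were not run under the alternatives.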
